A study of Mus musculus with 18 samples.

Results

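Tryptophan tRNA was followed through intact, ribosome-contained and fragmented tRNA of mouse brain with and without FTSJ1. Its members are the rows of the deposited read table whose name, without the trailing number, is Trp. A single row met this rule, Trp1 with anticodon CCA, of 147 tRNA rows in all, which fall into 54 anticodon families, each given as its amino acid and its anticodon. The row is therefore also the whole Trp-CCA family, as in 19 of the 54 families, and isodecoders (tRNAs that share an anticodon and differ elsewhere) could not be compared with one another. Trp1 passed the filter on low counts in every comparison.

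The brains came from male C57BL/6 mice aged 8 weeks, 3 wild type (WT) and 3 Ftsj1 KO, all listed as untreated. How the knockout was made is not given in the sources used here. Each of the 6 mice gave a library of total tRNA, cut from a gel of total RNA, a library of tRNA recovered after ribosome profiling (ribosome-contained tRNA) and a library of shorter tRNA-derived RNA (tRNA fragments), which makes 18 libraries. Depth was 1505291 to 2000422 reads for total tRNA, 406764 to 672127 for ribosome-contained tRNA and 85323 to 151056 for fragments. Values after ± are SDs over the 3 mice of a genotype, and permutation tests are exact and two-sided, where 3 mice against 3 cannot give p below 0.1. Whole brain was used, so fewer cells of a type and less tRNA per cell cannot be told apart. Ftsj1 mRNA was not measured in these libraries, and the knockout was not checked here.

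FTSJ1 is a methyltransferase encoded on the X chromosome that places a methyl group on the ribose of nucleotides in the anticodon loop of a few tRNAs, working with a different partner protein at each site. In people its loss causes intellectual disability. The tryptophan tRNA, which reads UGG, the only codon for tryptophan in nuclear genes, is a known substrate together with the phenylalanine tRNA and some leucine tRNAs, and its wobble cytidine is among the methylated nucleotides. Cutting of tRNAs, often within the anticodon loop, gives stable fragments that are found in many tissues, brain among them.

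RefSeq lists 8 nuclear genes for this tRNA in the mouse assembly GRCm38.p6, named n-TWcca1 to n-TWcca8. Of these, 5 lie next to another tRNA gene. Gene n-TWcca4 stands between the arginine tRNA gene n-TRtcg3 and the glycine tRNA gene n-TGgcc6, n-TWcca7 between the glycine tRNA gene n-TGtcc6 and Aurkb, and n-TWcca2 overlaps the span of Tmpo. The table of reads does not say which of the 8 genes the row Trp1 stands for, and the assembly behind the counts is not given in the sources used here, so no coordinates are given. The mature sequence was not analysed here.

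In WT brain the reads of Trp1 made up a larger share of intact tRNA than of either other form. Of total tRNA reads, Trp1 took 1.60%, 1.41% and 1.63% in WT mice 1, 2 and 3, from 24066, 21711 and 25370 reads. Of ribosome-contained reads it took 1.13%, 0.962% and 0.983%, from 5587, 5155 and 6187 reads. Of fragment reads it took 0.572%, 0.554% and 0.581%, from 651, 473 and 604 reads. The 3 ranges do not overlap, and the fragment shares of WT mice lie closest together, with an SD of 0.0133 around a mean of 0.569% (n = 3).

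Within WT, the ribosome-contained share was 0.665 ± 0.0543 of the total share, and the fragment share was 0.369 ± 0.0204 of it. Both differences passed edgeR's quasi-likelihood test on single rows, in which the adjusted p is corrected over all rows tested and the threshold is 0.05. Trp1 was lower in ribosomes than in total tRNA by a log2 fold change of -1.03 (SE 0.12, adjusted p = 8.9e-09) and lower among fragments by -1.64 (SE 0.09, adjusted p = 2e-13). Such calls were common, since 39.8% of 118 rows were lower in ribosomes and 49.5% of 105 rows were lower among fragments. These log2 values depend on how libraries of different kinds are scaled. By total reads alone the ribosome value was -0.59 and the fragment value -1.44. Set against the median of all rows under the same scaling, the ribosome value was -1.18 and the fragment value -1.03 with both scalings. This distance depends on which rows set the median. Without a filter on low counts it was -1.53 for ribosomes and -0.19 for fragments, and with the stricter filter -0.77 for ribosomes. On counts summed by anticodon family Trp-CCA gave -0.64 (SE 0.10) in ribosomes and -1.17 (SE 0.07) among fragments, or -0.70 and -0.71 from the median of all families, with 37.3% of 51 and 49% of 49 families lower.

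**Figure D1:**
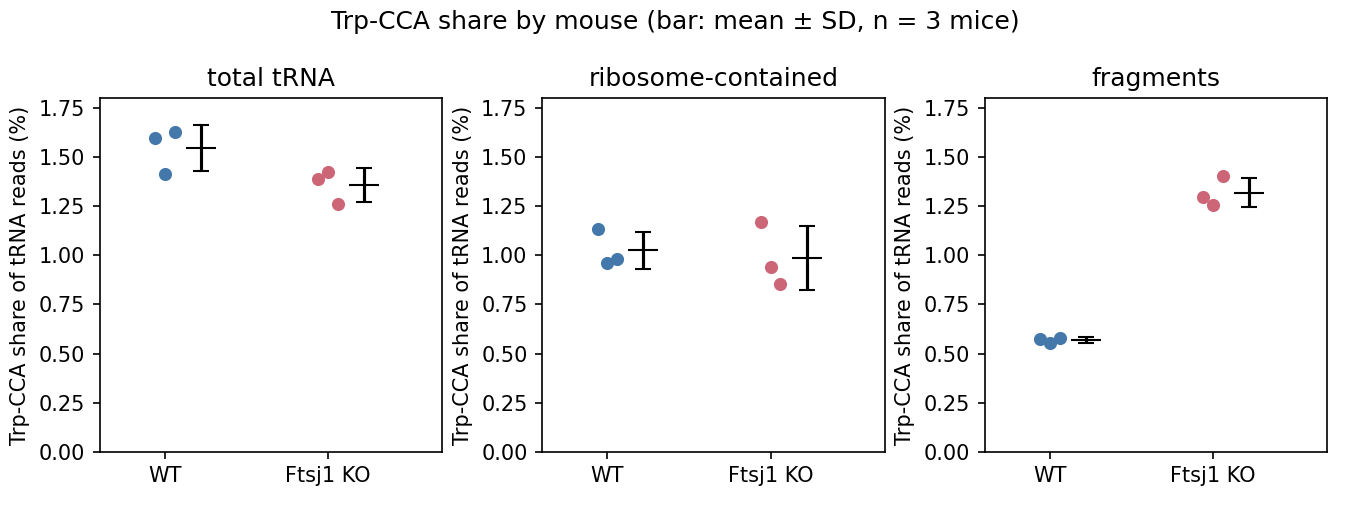
Share of Trp-CCA in the tRNA reads of each library (vertical axis, percent) for WT and Ftsj1 KO mice in the 3 library types, 1 point per mouse with mean ± SD beside it. The KO points lie between 1.26% and 1.40% among fragments, above all WT points, whereas the genotypes overlap in total and ribosome-contained tRNA.

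The first comparison of genotypes asked whether intact tryptophan tRNA takes a different part of the tRNA reads without FTSJ1. Relative to other tRNAs, Trp1 was modestly lower in KO brain. Its share of total tRNA reads in KO mice 1, 2 and 3 was 1.39%, 1.42% and 1.26%, from 27761, 21597 and 23480 reads, so KO mice 1 and 3 lie below every WT mouse, and KO mouse 2 lies just above WT mouse 2, the lowest WT mouse. The mean share was 1.55% ± 0.117 for WT mice against 1.36% ± 0.0841 for KO mice, and the exact permutation test gave p = 0.2. In the row fit of edgeR Trp1 fell 1.22-fold, with a log2 fold change of -0.29 (SE 0.07, adjusted p = 0.0021). Of 101 rows 7.92% were lower and 9.9% higher, or 8 and 10 rows, and 8 and 17 rows with the replicate number as a block. Only 2 rows had a lower log2 fold change than Trp1, Phe2 (-1.35) and the alanine row Ala14.

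The call rests on the scaling. With library size as the only scaling Trp1 was at -0.19 (adjusted p = 0.082), while its distance from the median of all rows was -0.28 under both scalings. As a family sum Trp-CCA was at -0.22 (SE 0.06, adjusted p = 0.018, with 6.12% of 49 families lower and 2.04% higher). Leaving out WT mouse 1, WT mouse 3 or KO mouse 3 ended this call, with edgeR adjusted p of 0.104, 0.127 and 0.0656 in that order. With the replicate number as a block 3 families were higher and 3 lower, in place of 1 and 3, and Trp-CCA kept its call.

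In ribosomes no difference between genotypes was detected for tryptophan tRNA. The ribosome-contained share was 1.17%, 0.942% and 0.853% in KO mice 1, 2 and 3, from 7843, 3833 and 4296 reads. KO mouse 1 thus lies above every WT mouse, and KO mice 2 and 3 lie below every WT mouse. WT mice averaged 1.03% ± 0.0936 against 0.987% ± 0.162 for KO mice (exact permutation p = 0.7). For Trp1 the edgeR row fit gave a log2 fold change of 0.00 with an SE of 0.14 (adjusted p = 0.996), in a fit where 1.94% of 103 rows were lower and 1.94% higher. It ranged from -0.10 without WT mouse 2 to 0.15 without KO mouse 3, with no call in either case.

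Among fragment reads the share of tryptophan tRNA was, in every KO mouse, more than double that of any WT mouse. The fragment share was 1.29%, 1.26% and 1.40% in KO mice 1, 2 and 3, from 1956, 1193 and 2089 reads. The lowest KO mouse lies above the highest WT mouse, at 1.26% against 0.581%. That KO mouse, mouse 2, had 94823 fragment reads, within the 85323 to 113832 of the WT libraries, while the other KO libraries were deeper at 151056 and 149028 reads. The mean went from 0.569% ± 0.0133 to 1.32% ± 0.0746 (exact permutation p = 0.1). Trp1 rose 2.31-fold in the edgeR row fit, a log2 fold change of 1.21 (SE 0.07, adjusted p = 2e-07), where 8.64% of 81 rows were higher. Phe2, the phenylalanine row, was the only row with a larger rise in this fit. The value of Trp1 lay between 1.16 and 1.25 under the 13 alternative settings, with a call in each.

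The gain of Trp-CCA in fragments was 0.749 percentage points of the library. This was the second largest gain in share of the 54 families and 15% of all gains summed, although Phe-GAA, with the larger fold change, gained 0.337 points. In total tRNA the loss of Trp-CCA was -0.188 points, and that of Phe-GAA -1.50 points.

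**Figure D2:**
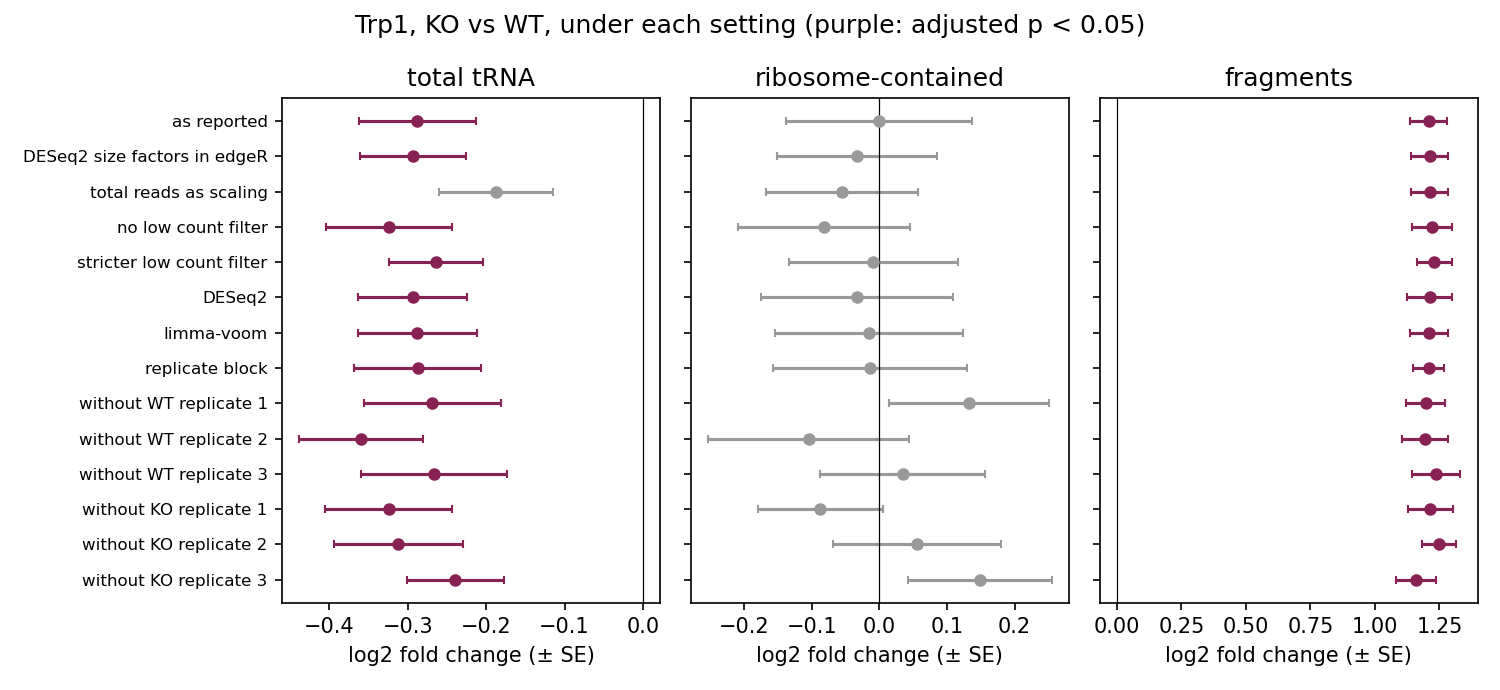
Log2 fold change of the row Trp1 in KO against WT (horizontal axis, ± SE) as reported and under each alternative setting (vertical axis), for the 3 library types, each on its own scale, with purple where the adjusted p is under 0.05. The fragment values stay between 1.16 and 1.25, the ribosome values lie on both sides of 0, and the total tRNA value loses its call where total reads alone set the scale.

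Since each mouse gave all 3 libraries, the shares could be set against each other within a mouse. The fragment share of a mouse divided by its total share was 0.358, 0.393 and 0.357 in WT mice 1, 2 and 3. In KO mice 1, 2 and 3 it was 0.933, 0.884 and 1.11. All KO ratios were more than double the highest WT ratio, and the mean KO ratio, 0.976 ± 0.119, was 2.64 times that of WT (exact permutation p = 0.1). In the edgeR interaction of genotype with library type, Trp1 had a log2 difference of 1.57 (SE 0.12, adjusted p = 1.9e-09), where 6.67% of 105 rows had a higher KO effect among fragments. Counted from the largest difference, Trp1 ranked 7 of these 105 rows. The family sum gave 1.31 (SE 0.10, adjusted p = 2.8e-08; 10.2% of 49 families). Measured from the median of all features the value was 1.50 in both fits. With the mouse as a block both calls held.

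The ratio of the ribosome-contained share to the total share was 0.709, 0.681 and 0.604 in WT mice 1, 2 and 3, and 0.841, 0.662 and 0.675 in KO mice 1, 2 and 3. The genotypes overlap, with KO mouse 1 the highest of all 6 mice. KO mice averaged 0.726 ± 0.0995 beside 0.665 ± 0.0543 in WT mice (exact permutation p = 0.6). The edgeR interaction for ribosome-contained against total tRNA was 0.24 for Trp1 (SE 0.17, adjusted p = 0.43), where 0.847% of 118 rows were higher and 5.08% lower. The fall of Trp1 in total tRNA was therefore not shown to differ from its value in ribosomes. With the mouse as a block the value was 0.22 (adjusted p = 0.293), and the rows called went from 7 to 16.

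**Figure D3:**
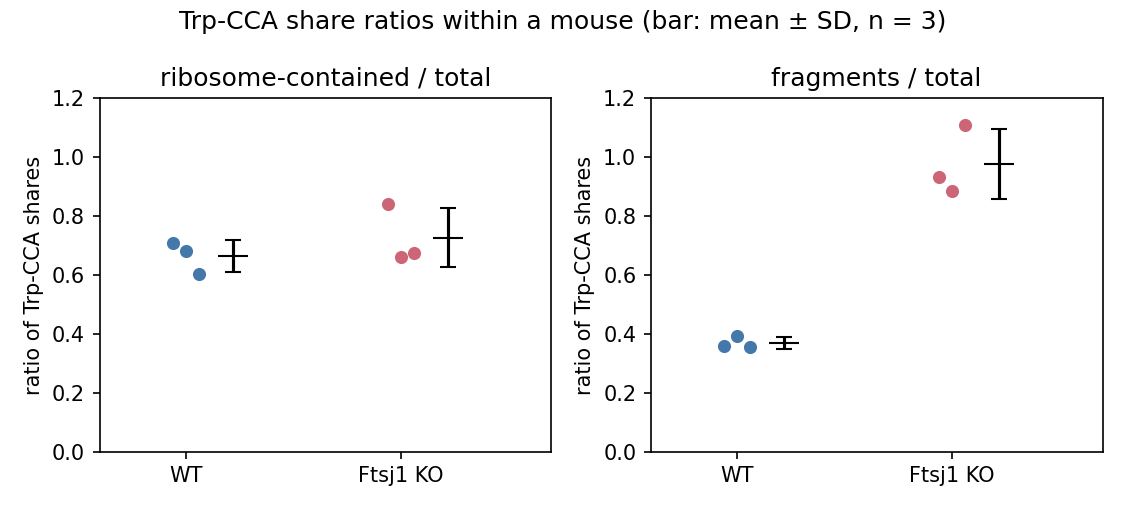
Trp-CCA share in ribosome-contained tRNA (left) and in fragments (right) divided by its share in total tRNA of the same mouse (vertical axis, ratio without unit), 1 point per mouse with mean ± SD. The fragment ratio lies between 0.357 and 0.393 in WT and between 0.884 and 1.11 in KO, and the ribosome ratios of the genotypes overlap.

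Across the 6 groups, the mean share of Trp-CCA was highest in total tRNA of WT at 1.55%. It was followed by total tRNA of KO at 1.36%, fragments of KO at 1.32%, ribosome-contained tRNA of WT at 1.03% and of KO at 0.987%, and fragments of WT at 0.569%. The first 3 groups overlap with their neighbours in this order, as do both ribosome groups with each other. The gaps below fragments of KO and above fragments of WT are free of overlap. Fragments of tryptophan tRNA thus went from the lowest of these shares in WT to one that overlaps the share in intact tRNA of KO mice.

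Other wobble-position substrates of FTSJ1 were set beside tryptophan tRNA as family sums: Phe-GAA, a phenylalanine tRNA listed as the single row Phe2, and the leucine tRNAs Leu-CAA (1 row) and Leu-TAA (3 rows). In total tRNA, where Trp-CCA was at -0.22, 1 of these 3 fell, Phe-GAA with a log2 fold change of -1.28 (SE 0.07), beside 6.12% of 49 families lower and 2.04% higher, while Leu-CAA was at 0.01 (SE 0.06) and Leu-TAA at -0.04 (SE 0.08). In ribosomes, where Trp-CCA was at -0.05 (SE 0.11), 1 of 3 fell, again Phe-GAA at -0.80 (SE 0.10), where 12.2% of 49 families were lower and 10.2% higher. Leu-CAA was at 0.20 (SE 0.08) and Leu-TAA at 0.12 (SE 0.10). Among fragments, where Trp-CCA rose by 1.21, 1 of 3 rose, Phe-GAA by 2.08 (SE 0.15), with 19.6% of 46 families higher and 6.52% lower. Leu-CAA was at 0.19 (SE 0.12) and Leu-TAA at -0.01 (SE 0.17).

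**Figure D4:**
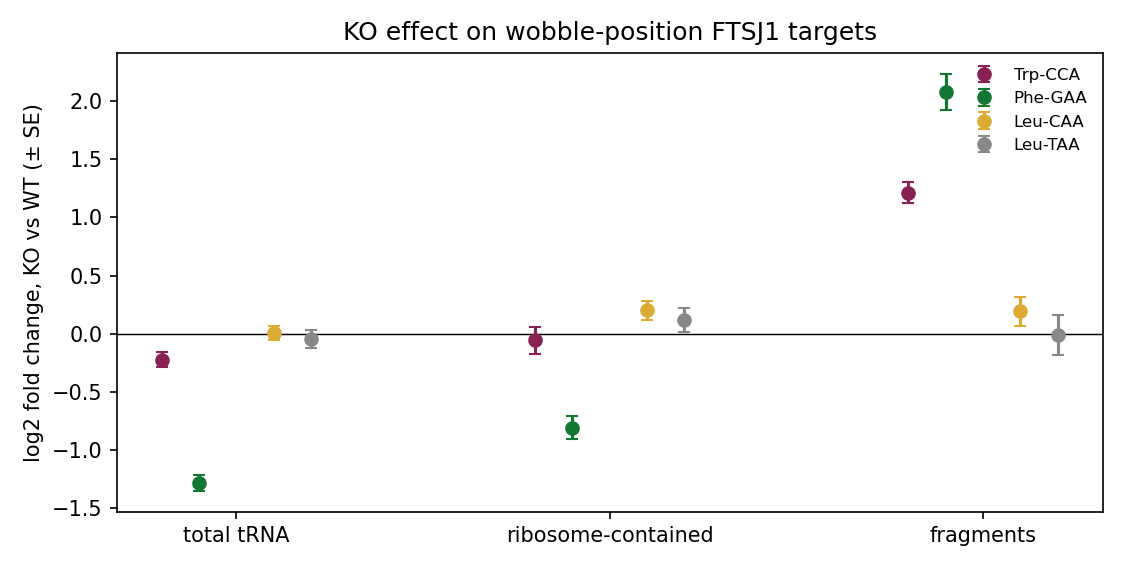
Log2 fold change of KO against WT (vertical axis, ± SE, family sums in edgeR) for Trp-CCA, Phe-GAA, Leu-CAA and Leu-TAA in the 3 library types (horizontal axis). Among fragments Phe-GAA (2.08) and Trp-CCA (1.21) lie above both leucine tRNAs, and in total tRNA Phe-GAA (-1.28) lies far below the other 3.

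Ratios of reads within a library, which do not depend on scaling, were used to compare tryptophan tRNA with these substrates directly. In total tRNA there were 0.627, 0.518 and 0.657 Trp-CCA reads per Phe-GAA read in WT mice 1, 2 and 3. In KO mice 1, 2 and 3 there were 1.18, 1.29 and 1.28. The ratio was higher in every KO mouse than in any WT mouse. Among fragments it was lower in every KO mouse, with 7.0, 4.46 and 5.25 Trp-CCA reads per Phe-GAA read in WT mice and 3.01, 2.66 and 3.29 in KO mice. In ribosomes the ratio averaged 0.275 ± 0.0379 in WT mice and 0.461 ± 0.0195 in KO mice. Each of these 3 contrasts gave an exact permutation p = 0.1 without overlap between genotypes. Phe-GAA itself differed between genotypes in all 3 library types, so these ratios also carry its changes. It had 93 to 115 fragment reads per WT library.

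Leu-CAA had no edgeR call between genotypes in any library type, yet it is not a fixed reference. In total tRNA its share was 0.467% to 0.481% in KO mice and 0.460% to 0.462% in WT mice. In ribosomes it was 0.538% to 0.606% in KO mice and 0.477% to 0.505% in WT mice. Against Leu-CAA, Trp-CCA fragments went from 1.50 ± 0.124 to 3.02 ± 0.0589 reads per Leu-CAA read (exact permutation p = 0.1). In total tRNA the ratio to Leu-CAA was 3.47, 3.07 and 3.52 in WT mice and 2.88, 3.05 and 2.67 in KO mice. Every KO mouse lies below every WT mouse here, although KO mouse 2 and WT mouse 2 are nearly equal (exact permutation p = 0.1). The Trp-CCA shares of total tRNA themselves overlap, with 1.42% in KO mouse 2 and 1.41% in WT mouse 2. In ribosomes the ratio overlapped between genotypes (2.09 ± 0.254 in WT mice, 1.76 ± 0.383 in KO mice, exact permutation p = 0.3). Against Leu-TAA, with 33 to 66 fragment reads per library, the fragment ratio went from 14.2 ± 3.57 to 32.0 ± 4.0 (exact permutation p = 0.1), and the total (p = 0.3) and ribosome (p = 0.2) ratios overlapped between genotypes in exact permutation tests. Of the 14 exact tests on shares and ratios the smallest p was 0.1, which became 0.175 after Benjamini-Hochberg adjustment.

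Tryptophan tRNA was also placed among tRNAs with the same wobble base. The table holds 13 other families whose anticodon starts with C, the initiator methionine tRNA left aside, and all 13 were tested. These 13 include Leu-CAA, named above as a substrate of FTSJ1. In total tRNA 1 of them was higher, the arginine tRNA Arg-CCT (log2 fold change 0.23, SE 0.06), and 0 were lower, beside 2.04% and 6.12% of all 49 families. Thr-CGT, a threonine tRNA, was at 0.15 (SE 0.06). Their median was 0.02 beside 0.03 for all families, and Trp-CCA had the lowest value of the 14. In ribosomes 0 were higher and 1 was lower, the lysine tRNA Lys-CTT (-0.31, SE 0.07), beside 10.2% and 12.2% of all 49 families, with Leu-CAG at 0.30 (SE 0.11) and a median of 0.03 beside 0.05 for all families. Among fragments 3 were higher and 1 was lower, the glutamine tRNA Gln-CTG (-0.48, SE 0.06), counts near the background of 19.6% and 6.52% of all 46 families. Ser-CGA, a serine tRNA, was at -0.32 (SE 0.16). Their median of 0.01 lay beside -0.04 for all families, and Trp-CCA had the highest value of the 14.

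**Figure D5:**
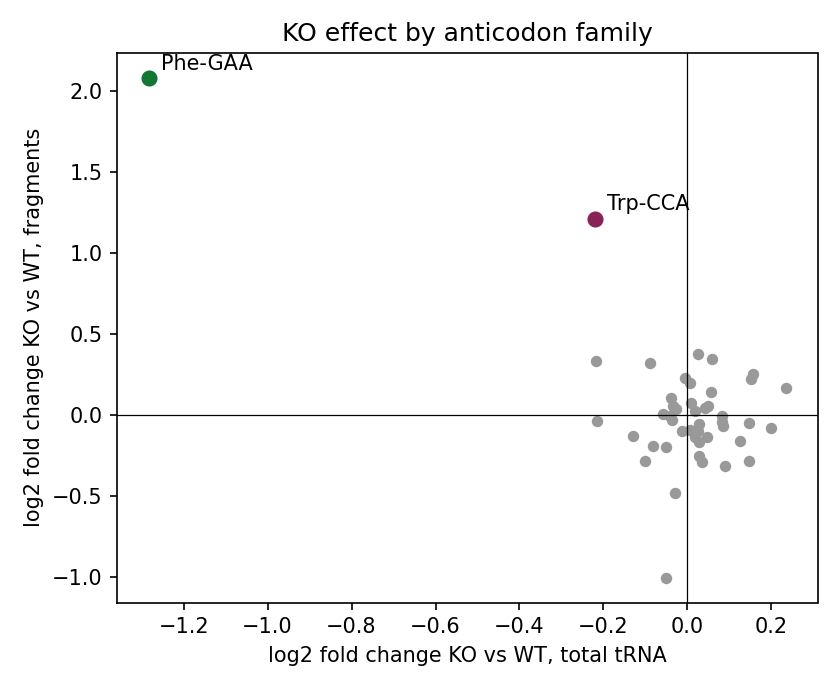
Log2 fold change of KO against WT in total tRNA (horizontal axis) and in fragments (vertical axis) for the 46 anticodon families tested in both, 1 point per family, from libraries of the same mice. Phe-GAA (-1.28 and 2.08) and Trp-CCA (-0.22 and 1.21) lie apart from the remaining families on the fragment axis.

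The families whose pattern was most like that of Trp-CCA over the 18 libraries were Phe-GAA, Asn-GTT and Ala-AGC. Likeness was the Pearson correlation of log2 CPM, reads scaled to a common library size, after subtracting the mean of the WT libraries of the same type. It was 0.92 for Phe-GAA, 0.84 for the asparagine tRNA Asn-GTT and 0.76 for the alanine tRNA Ala-AGC, of 45 families ranked. The points share their libraries and their WT baseline, so these values are a description. Among fragments Asn-GTT had a log2 fold change of 0.32 (SE 0.10) and Ala-AGC of 0.33 (SE 0.07), beside 1.21 for Trp-CCA. In total tRNA Asn-GTT was at -0.09 (SE 0.08) and Ala-AGC at -0.22 (SE 0.06), beside -0.22 for Trp-CCA.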

How the data were processed

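Small RNA libraries were made from brain by AlkB treatment, which removes base but not ribose methyl groups that stop reverse transcription, and adaptor ligation, per the labels' protocols. The authors deposited a table of counts, called read numbers in its header, for 147 tRNA rows and 18 libraries. The submitters' processing notes name Bowtie2. How it was set, its reference and how reads matching more than one tRNA were counted is not given in the sources used here. A count therefore also reflects ligation, reverse transcription and the sharing of reads among similar tRNAs. The knockout is meant to remove ribose methyl groups from FTSJ1 substrates. Whether this changes how well their reads are recovered was not tested. For these tRNAs, genotype differences in read recovery and in tRNA level cannot be told apart here. No molecular identifiers or spike-in enter the counts, so values are relative. Read ends are not analysed here, so the part of the tRNA that a fragment covers is unknown. A ribosome column headed K3 was taken as KO mouse 3.

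Rows, and rows summed by anticodon, entered the quasi-likelihood test of edgeR 4.0.16 under R 4.3.3 (TMM, filterByExpr with minimum count 10, Benjamini-Hochberg, threshold 0.05). KO and WT were fitted within each library type, and library types together in fits of 12 libraries. The SE is the absolute log2 fold change divided by the square root of F. Libraries of a group differed by at least 4.0 times the chi-square expected from sampling noise per degree of freedom, so none was counted as a repeat. Exact tests measure the spread between 3 mice per genotype, while p-values of edgeR also draw on a spread estimated over all rows or families. The fits of 12 libraries treat libraries of the same mouse as independent, except with the mouse as a block. Their WT contrasts also use the spread of the KO libraries. Same-numbered WT and KO libraries deviated together in total tRNA (correlations 0.451 to 0.809) and not throughout in the other types. Libraries of 1 mouse are paired by the labels, with correlations of their deviations from -0.793 to 0.423. Alternatives used DESeq2 1.42.0 and limma 3.58.1 (voom). Exact tests used SciPy 1.17.1 in Python 3.11.15, with pandas 2.3.3, NumPy 2.4.6 and matplotlib 3.10.9. The fits on family sums were tested on simulated counts with independent libraries and the same spread for every family. That spread was smaller than the one fitted to families in the fits with ribosome-contained libraries. The row fits were not tested in this way.

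The text names all Trp rows, Phe-GAA, Leu-CAA and Leu-TAA, at most 2 members with the largest change of the wobble-C list, and the 3 families most like Trp-CCA (log2 CPM with prior count 2). Ala14 was named after its value was seen. Read ratios between tRNAs were added after the counts were seen. The member and the lists were chosen with earlier results of these data known.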

Additional observations from a re-analysis of the deposited data

Results flagged for a closer look

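The effect of the knockout on tryptophan tRNA differed between fragments and total tRNA when the difference itself was tested, by 1.57 on the log2 scale for the row Trp1 and by 1.31 for the Trp-CCA sum. Trp1 is the only row of Trp-CCA, so both values come from the same counts, fitted among rows or among families. Measured from the median of all rows or families in the same fit, the difference was 1.50 in each. Without KO mouse 3, the KO mouse with the highest fragment share and the lowest total share, the values were 1.27 and 1.21.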

How the results depend on the processing

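The rise of Trp1 and of the Trp-CCA sum among fragments, their difference from total tRNA and the differences between library types in WT kept direction and call under all alternatives run (other scaling, low count filters, DESeq2, limma-voom, the replicate block and each mouse left out). Scaling by total reads ended the call of the fall in total tRNA for Trp1 (-0.19, adjusted p = 0.0816) and the sum (-0.19, adjusted p = 0.105), which the other scalings kept. Without single mice the total tRNA value of the sum ranged from -0.28 to -0.18, losing its call in 3 of 6 cases, and that of Trp1 from -0.36 to -0.24 with none lost. Without single mice the ribosome value ranged from -0.10 to 0.15 for Trp1 and from -0.18 to 0.036 for the sum, and the ribosome minus total difference of the sum from -0.021 to 0.18, never with a call. The replicate block gave -0.29 (adjusted p = 0.00376) for Trp1 in total tRNA and changed no call of Trp1 or the sum. Scaling moved the WT fragment value of the sum both ways, from -1.17 to -0.85 with DESeq2's size factors and to -1.48 with TMM within each library type.

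Counts of all rows called depended more on the settings: 4 to 25 (18 as reported) in total tRNA, 3 to 24 (4) in ribosomes, 8 to 18 (10) among fragments, 0 to 17 (7) for the ribosome difference and 8 to 16 (9) for the fragment difference. For families these were 1 to 9 (4), 3 to 22 (11), 7 to 16 (12), 0 to 13 (0, with 11 at an unadjusted p under 0.05) and 8 to 17 (16). Causes were not tested. Shares within Trp and isodecoder usage, planned for several rows, were not run because 1 row was found. Among the 4 named substrates Leu-TAA had the fewest fragment reads.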
